A study of Mus musculus with 4 samples.

Results

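Pdk4 and 5 genes of lipid fuel use (Lpin1, Plin4, Fabp4, Fabp3 and Hadhb) were followed through mRNA and ribosome footprint libraries of mouse tibialis anterior, a leg muscle. The 6 genes were taken by symbol from a deposited list of 1000 genes, and all 6 were found. Pdk4 was picked because it was the gene with the highest treated to untreated ratio, and the others were proposed with results of these data in view, so the ratios below describe the genes and test nothing. Treated muscle came from Dmd Dup2 mice, a model in which exon 2 of dystrophin is duplicated, given scAAV9.U7-ACCA, a serotype 9 AAV vector whose U7 small nuclear RNA is built to make splicing skip an exon. Untreated muscle came from Dmd Dup2 mice without the vector, so both conditions share the mutation, and no wild-type muscle was analysed here. Each condition gave 1 mRNA library and 1 library of ribosome-protected fragments (footprints), and the labels do not give the age or sex of the mice, the time after treatment, the number of mice or whether mice were pooled. With 1 library per group no difference has a replicate check, and every interval below is a 95% interval of counting error alone.

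Muscle burns glucose or fatty acids, and pyruvate dehydrogenase is the gate through which glucose carbon enters the citrate cycle. Pdk4 encodes a kinase that phosphorylates this enzyme and shuts the gate, and in muscle it is known to be induced by fasting, by FoxO factors and by the fatty acid sensing receptors of the PPAR family. The other genes act along the path of fat: Lpin1 makes diacylglycerol, the direct precursor of triglyceride, Plin4 coats lipid droplets, Fabp3 and Fabp4 carry fatty acids through the cytosol, and Hadhb cuts them in the last step of mitochondrial beta-oxidation. Footprints are the stretches of mRNA covered by ribosomes, so footprints per mRNA read describe how heavily an mRNA is loaded with ribosomes.

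Reads over all listed genes came to 4248818 for treated mRNA, 125236 for untreated mRNA, 1664122 for treated footprints and 3349015 for untreated footprints. The untreated mRNA library was the shallowest, and the 6 genes had 14 to 74 reads in it. Levels are given as RPM, reads scaled to 1000000 per library with TMM, a method that equalises the bulk of genes between libraries. A gene was called higher or lower in treated muscle where the fold reached 1.5, the interval left out 1 and its reads in both libraries together reached 50, and all 6 genes passed that minimum. The choice of scaling moves all genes together: the median listed gene had an mRNA log2 ratio of 0.06 under TMM, −0.60 under the listed totals, −0.34 under upper-quartile scaling, −0.25 once the 20 most abundant genes were set aside, and −0.82 under the constants of the authors. Of called mRNA genes, 56.2% were higher under TMM, against 24.2%, 35.7%, 40.7% and 16.8% under those 4 scalings. In footprints their share was 43.2% with TMM and 23.8% with the authors' constants. In the footprint to mRNA ratio it was 45.0% with TMM and 73.9%, 60.0%, 63.8% and 73.8% in the same 4 settings. Differences are therefore also given relative to the median listed gene, which scaling leaves as it is. The defining markers of fast muscle fibres were present, as the labelled tissue requires. Of 8 such markers 7 were listed, and together they held 226405 and 153386 RPM of treated and untreated mRNA and 213093 and 204745 of treated and untreated footprints.

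All 6 genes were called higher in treated footprints, where 19.9% of 999 listed genes were called higher by the same rule, and 0 were called lower, against 26.2%. In mRNA 3 of the 6 were called higher, against 31.8% of 996 listed genes, 1 was called lower, against 24.8%, and 2 were called neither way. The 6 genes thus fell into 2 patterns. Pdk4, Lpin1 and Plin4 were higher in both mRNA and footprints, while Fabp4, Fabp3 and Hadhb were higher in footprints without a higher mRNA. Relative to the median listed gene, the mRNA log2 ratio was 4.07 for Pdk4, 2.34 for Lpin1, 2.27 for Plin4, 0.18 for Fabp4, −0.34 for Hadhb and −0.80 for Fabp3. In footprints the same quantity was 5.16 for Pdk4, 2.14 for Fabp4, 2.002 for Lpin1, 1.72 for Plin4, 0.89 for Hadhb and 0.84 for Fabp3. Neighbours in these orders did not all differ beyond counting error. In mRNA the intervals of the quotient held 1 for Lpin1 against Plin4, Fabp4 against Hadhb and Hadhb against Fabp3, and in footprints for Fabp4 against Lpin1 and Hadhb against Fabp3. Since Pdk4 was chosen on these ratios and the rest with them known, the counts are not evidence about lipid genes as a class.

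**Figure D1:**
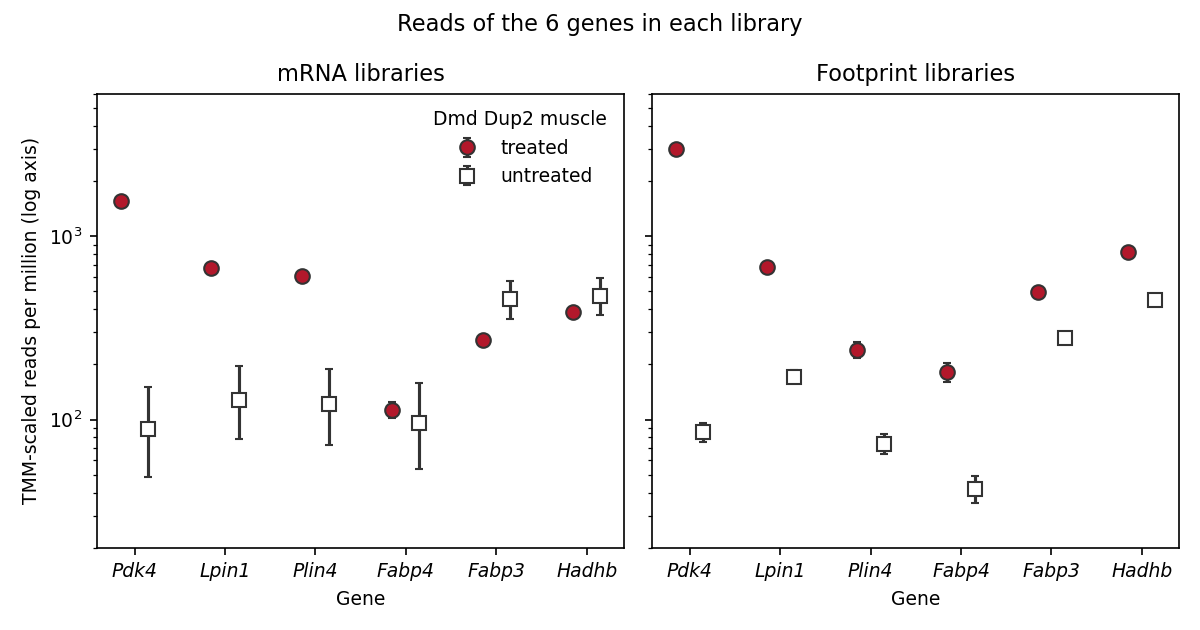
TMM-scaled RPM (log axis) of each gene in the mRNA libraries (left panel) and the footprint libraries (right panel), with treated muscle as filled circles and untreated muscle as open squares. Each point is 1 library and bars are 95% exact binomial intervals of counting error, some smaller than the symbol. In the right panel all 6 treated points lie above the untreated ones, and in the left panel Fabp3 and Hadhb lie below.

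Pdk4 (NM_013743) had 5284 reads in treated mRNA and 14 in untreated mRNA, which is 1564 and 89.3 RPM. It had 4927 reads in treated footprints and 290 in untreated footprints, or 2995 and 85.1 RPM. Pdk4 thus stood near the top of the list in treated muscle and near its end in untreated muscle, in a list that holds the genes with the most untreated mRNA reads. Ordered from the most abundant listed gene, it stood at place 69 in treated and 934 in untreated mRNA, and at place 42 in treated and 816 in untreated footprints. The treated to untreated ratio was 17.5 (10.4 to 32.0) in mRNA and 35.2 (31.2 to 39.7) in footprints, and was the highest of all listed genes in both.

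Pdk4 is the last of the 1000 genes in the table, whose rows fall in order of the untreated mRNA count. It shares the lowest count, 14 reads, with 66 other genes, and a gene with fewer reads in that library is not listed. Those 66 genes had 47 to 1725 reads in treated mRNA, with a median of 307, and 13 to 906 treated footprints, with a median of 155.5. Pdk4, with 5284 mRNA reads, lay above them in treated mRNA by the way it was chosen, since all 67 share the same untreated count. Next in the mRNA ranking were the actin-binding repeat genes Xirp1 at 11.1 (7.74 to 16.6) and Xirp2 at 10.3 (8.73 to 12.3), whose intervals overlap that of Pdk4. In footprints the next genes were Abra, an actin-binding protein that raises serum response factor activity, at 10.3 (9.32 to 11.4) and Trim63, a ubiquitin ligase of muscle atrophy, at 10.3 (9.26 to 11.4), and neither interval reaches that of Pdk4.

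Reads of Pdk4 per 100 reads of another gene in the same library need no scaling, and are given as a description, since a gene chosen for the highest ratio must be higher in treated muscle against any other listed gene. Its reads per 100 reads of Pdk2, another kinase of the same enzyme, were 306 (290 to 323) in treated and 45.2 (22.2 to 87.4) in untreated mRNA. In footprints they were 883 (809 to 965) in treated and 27.6 (24.2 to 31.5) in untreated muscle. Per 100 reads of Pdha1, the enzyme subunit that these kinases phosphorylate and a gene named here after its values were seen, Pdk4 had 296 (280 to 312) in treated and 15.9 (8.36 to 28.1) in untreated mRNA. It had 488 (456 to 523) and 12.6 (11.1 to 14.2) per 100 Pdha1 footprints in treated and untreated muscle.

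Lpin1 (NM_015763), which encodes the phosphatidate phosphatase lipin-1, had 2269 reads in treated and 20 in untreated mRNA, or 672 and 128 RPM. In footprints it had 1112 reads in treated and 583 in untreated muscle, or 676 and 171 RPM. The ratio was 5.26 (3.40 to 8.63) in mRNA, 23rd of 996 genes, and 3.95 (3.57 to 4.37) in footprints, 12th of 999. Plin4 (NM_020568), which encodes the lipid droplet coat protein perilipin 4, had 2057 reads in treated and 19 in untreated mRNA, or 609 and 121 RPM. It had 396 reads in treated and 252 in untreated footprints, or 241 and 74.0 RPM. Its ratio was 5.02 (3.21 to 8.36) in mRNA, 28th of 996, and 3.25 (2.77 to 3.83) in footprints, 23rd of 999.

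Lpin1 and Plin4 were each higher in the treated than in the untreated library, in mRNA and in footprints. The mRNA ratio of Lpin1 divided by that of Plin4 was 1.05 (0.558 to 1.97), an interval that holds 1 but does not show the ratios to be equal. In footprints the same quotient was 1.21 (1.01 to 1.46), with Lpin1 ahead. The ratio of Pdk4 divided by that of Lpin1 was 3.33 (1.68 to 6.60) in mRNA and 8.91 (7.63 to 10.4) in footprints. Pdk4 was chosen as the gene with the highest ratio, so it stood above both by that choice.

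Because Pdk4, Lpin1 and Plin4 were higher at the mRNA level, the 250 bases before their transcription starts were searched for motifs, and those of Pdk4 and Lpin1 are shown, from the RefSeq promoter table of build GRCm38.p6, 5′ to 3′ on the strand of the gene. Capitals mark the motifs found. The windows are chr6:5496279-5496528 for Pdk4 and chr12:16610967-16611216 for Lpin1, both on the minus strand. The Lpin1 window lies inside the span of the gene, whose longer transcripts start further upstream, and that of Plin4 crosses the start of another Plin4 transcript and is not shown.
Pdk4: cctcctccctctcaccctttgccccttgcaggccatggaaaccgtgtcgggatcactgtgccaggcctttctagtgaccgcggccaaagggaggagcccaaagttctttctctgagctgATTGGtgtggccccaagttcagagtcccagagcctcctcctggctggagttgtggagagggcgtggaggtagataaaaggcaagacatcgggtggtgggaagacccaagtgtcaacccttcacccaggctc
Lpin1: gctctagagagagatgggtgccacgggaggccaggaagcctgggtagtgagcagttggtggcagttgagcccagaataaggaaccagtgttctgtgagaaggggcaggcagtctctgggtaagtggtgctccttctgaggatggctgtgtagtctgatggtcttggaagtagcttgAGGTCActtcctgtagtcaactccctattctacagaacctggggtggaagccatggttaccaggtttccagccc
Both strands were searched for 6 motifs. The half-site of nuclear receptors, the family that includes the PPARs, was spelled AGGTCA. The core bound by FoxO factors was spelled GTAAACA. The general promoter elements were the box spelled CCAAT and the core spelled TATAA. The E-box, which binds basic helix-loop-helix factors, was spelled CACGTG. The GC box, which binds Sp factors, was spelled GGGCGG. No matches of different motifs overlapped. On the strand of the gene, Pdk4 held 1 CCAAT box read backwards, starting at position −131 from the transcription start, and Lpin1 held 1 nuclear receptor half-site at position −74. Plin4 held 1 TATA core at position −32 and 1 CCAAT box read backwards at position −18. No motif was common to all 3. Of 32851 promoter windows of this length, 33.8% held the CCAAT box, 22.8% the TATA core, 14% the nuclear receptor half-site, 3.17% the FoxO core, 6.02% the E-box and 32.7% the GC box. The window of Hadhb held 2 GC boxes and no other match, and that of Fabp3 held none of the 6. A match is a run of letters and not a shown site.

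Fabp4 (NM_024406), the fatty acid binding protein known from adipocytes, small-vessel endothelium and macrophages, had 382 reads in treated and 15 in untreated mRNA, or 113 and 95.7 RPM. Its footprints were 298 in treated and 142 in untreated muscle, or 181 and 41.7 RPM. The mRNA ratio of 1.18 (0.707 to 2.13) held 1, and with the listed totals and the authors' constants it lay below 1, at 0.751 (0.449 to 1.35) and 0.641 (0.384 to 1.16). The footprint ratio was 4.34 (3.55 to 5.34), the 9th highest of 999 genes. Fabp4 footprints were thus higher in treated muscle while its mRNA, measured on 15 untreated reads, could not be told apart between the libraries. That count lies next to 14 reads, the lowest count in the list, and the intervals do not allow for that cut.

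Fabp3 (NM_010174), the fatty acid binding protein of heart and oxidative muscle fibres, had 914 reads in treated and 71 in untreated mRNA, or 271 and 453 RPM. It had 813 reads in treated and 953 in untreated footprints, or 494 and 280 RPM. The mRNA ratio was 0.597 (0.469 to 0.771), which is 1.67-fold lower in treated muscle, and the footprint ratio was 1.77 (1.61 to 1.94). Its mRNA and its footprints were therefore called in opposite directions. Under the constants of the authors the footprint ratio was 1.46 (1.33 to 1.61), just under the fold threshold. Of 9 slow fibre markers 5 were listed, 4 of them over the read minimum in mRNA. By the same rule 3 were called lower and 1 higher in mRNA, against 24.8% and 31.8% of listed genes. In footprints 2 were called lower and 0 higher, against 26.2% and 19.9%. Myh7, the slow myosin gene, which held most of their reads, had 9217 reads in treated and 105 in untreated mRNA, a ratio of 4.07 (3.36 to 4.98), and Tnnt1, the slow troponin gene, had 19 and 37 in treated and untreated mRNA and was 42.0-fold lower (23.5 to 77.3). Their summed level was 2794 and 1800 RPM in treated and untreated mRNA and 7669 and 9059 RPM in treated and untreated footprints. Their part in the Fabp3 result was not tested.

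Hadhb (NM_145558), the thiolase subunit of the mitochondrial trifunctional protein, had 1310 reads in treated and 74 in untreated mRNA, or 388 and 472 RPM. Its footprints were 1342 in treated and 1523 in untreated muscle, or 816 and 447 RPM. The mRNA ratio was 0.821 (0.649 to 1.05) and was called neither way, although it was called lower under 4 other scalings, at 0.522 (0.413 to 0.669) under the listed totals and down to 0.446 (0.352 to 0.571) under the constants of the authors. The footprint ratio was 1.82 (1.69 to 1.96), the 110th highest of 999.

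Hadha encodes the partner subunit of the same protein. Hadha had an mRNA ratio of 0.765 (0.627 to 0.942), and Hadhb reads per 100 Hadha reads were 77.1 (71.7 to 83.0) in treated and 71.8 (52.6 to 97.8) in untreated mRNA. In footprints they were 121 (112 to 132) in treated and 76.9 (71.9 to 82.3) in untreated muscle. The mRNA proportion of the pair thus could not be told apart between conditions, while the footprint proportion was higher in treated muscle. The ratio of Hadhb divided by that of Hadha was 1.07 (0.790 to 1.46) in mRNA and 1.58 (1.42 to 1.75) in footprints. These intervals overlap at their ends, which does not decide whether mRNA and footprints differ in this quotient. That difference was not tested. The footprint ratio of Hadha was 1.16 (1.07 to 1.25).

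**Figure D2:**
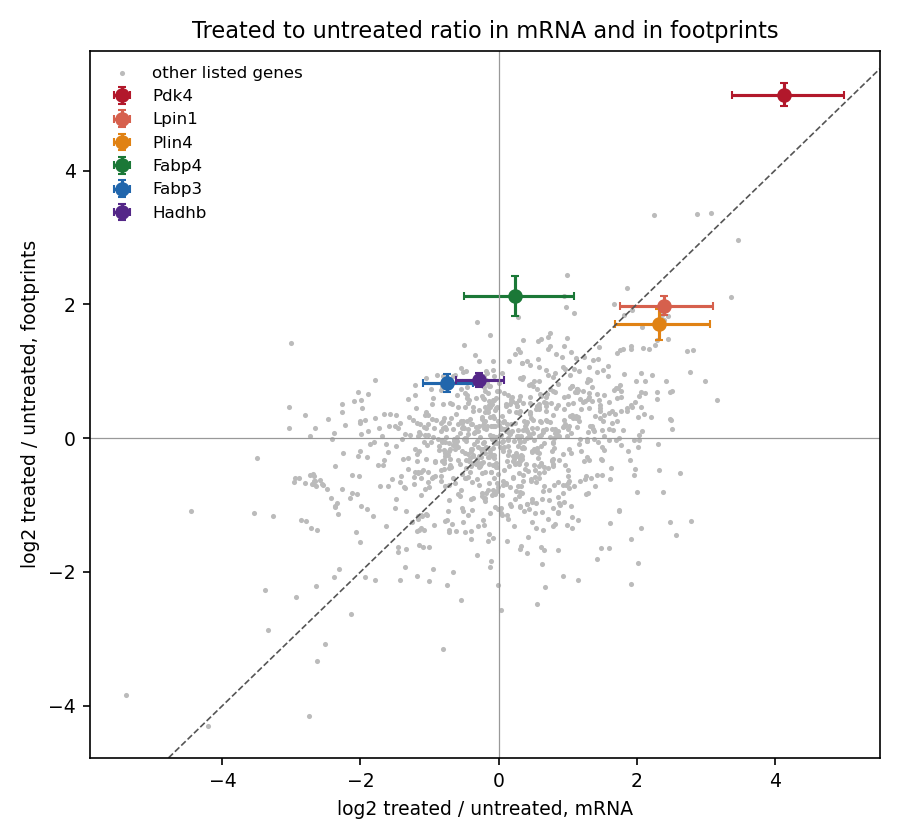
Log2 treated to untreated ratio in mRNA (horizontal axis) and in footprints (vertical axis) for the 6 genes (coloured, bars are 95% counting intervals) and for the other listed genes with at least 50 reads in each pair (grey points); the dashed line marks equal ratios. Pdk4 stands at the upper right, Lpin1 and Plin4 lie together near the line, and Fabp4, Fabp3 and Hadhb lie above it.

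Dividing each gene's footprint ratio by its mRNA ratio gives the difference in ribosome loading between conditions. It was called higher in treated muscle for 4 of the 6 genes, against 26.0% of 995 listed genes called higher, and lower for 0, against 31.9%. These ratios are built from the same counts as the choice of genes. Fabp4 had 3.79 (2.20 to 6.54), Fabp3 2.98 (2.30 to 3.85), Hadhb 2.24 (1.75 to 2.86) and Pdk4 2.08 (1.22 to 3.52). Pdk4 and Fabp4 had 14 and 15 untreated mRNA reads, at and next to the lowest count in the list. The intervals do not allow for that cut, and its effect on these ratios was not tested. Lpin1 had 0.769 (0.492 to 1.20) and Plin4 0.664 (0.414 to 1.07), and both intervals held 1. Under the constants of the authors these were 1.17 and 1.01, so the direction of neither is settled.

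Within each condition, footprints per mRNA read were set against the median listed gene on a log2 scale. This quantity also depends on how much of an mRNA is untranslated. Places against the list are therefore given to compare 1 gene between conditions, and do not rank genes by loading. The middle 50% of listed genes lay between −0.86 and 0.75 in treated and between −0.62 and 0.51 in untreated muscle. Fabp4 lay at 0.69 (0.47 to 0.91) in treated and −1.24 (−2.00 to −0.48) in untreated muscle, above 73.5% and 9.3% of listed genes. Fabp3 lay at 0.88 (0.75 to 1.02) in treated and −0.70 (−1.05 to −0.36) in untreated muscle. Both carriers thus had more footprints per mRNA read than the median listed gene in treated muscle and fewer in untreated muscle.

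Hadhb lay at 1.09 (0.98 to 1.20) in treated and −0.09 (−0.42 to 0.25) in untreated muscle, and Pdk4 at 0.95 (0.89 to 1.01) in treated and −0.12 (−0.88 to 0.64) in untreated muscle. For both, the untreated interval held the median gene and the treated one lay above it. Lpin1 was at 0.02 (−0.08 to 0.13) in treated and 0.39 (−0.25 to 1.02) in untreated muscle. Plin4 lay below the median gene in both, at −1.32 (−1.48 to −1.17) in treated and −0.75 (−1.41 to −0.08) in untreated muscle.

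**Figure D3:**
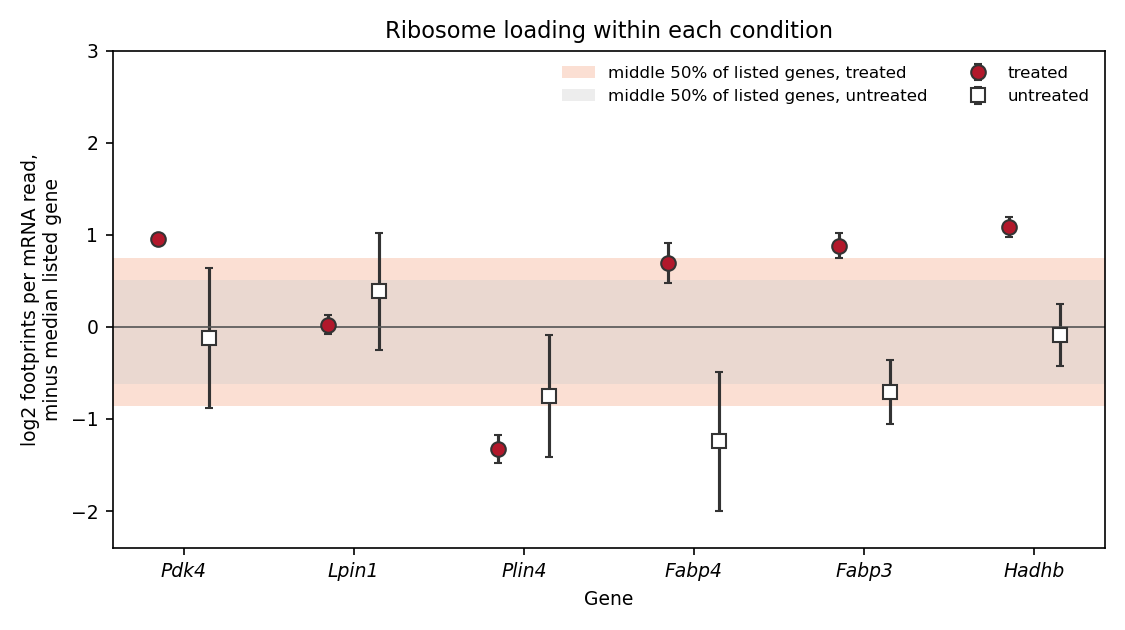
Log2 footprints per mRNA read minus that of the median listed gene (vertical axis) for each gene, in treated muscle (filled circles) and untreated muscle (open squares), with 95% counting intervals; the bands hold the middle 50% of listed genes in each condition. The treated value lies above the untreated interval for Pdk4, Fabp4, Fabp3 and Hadhb, and not for Lpin1 and Plin4.

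The genes most like each member were found by distance in the plane of the mRNA and footprint log2 ratios, over 995 genes and these 2 comparisons. The members' mRNA intervals had half-widths of 0.35 to 0.81 log2 units. Which gene is nearest is therefore not settled beyond counting error. Nearest to Pdk4 were Abra, Trim63 and the repeat gene Xirp1, but none was close, at distances of 2.06, 2.17 and 2.27 log2 units. For Lpin1 they included Acacb, which makes the malonyl-CoA that holds back fatty acid entry into mitochondria, at 0.14, and the glycogen phosphatase subunit Ppp1r3a, at 0.22. For Plin4 they were Hfe2, which encodes the iron regulator hemojuvelin, Ppp1r3a and Acacb, at 0.06 to 0.14. Fabp4 had no near neighbour, with the amino acid transporter Slc38a2 at 0.31, the glutathione transferase Gstm1 at 0.66 and the sarcomere gene Tcap at 0.67. For Fabp3 they were the mitochondrial aldehyde dehydrogenase Aldh2, the microsomal glutathione transferase Mgst3 and the acyl-CoA thioesterase Acot13, at 0.08 to 0.13. For Hadhb they were the complex III subunit Uqcrh, the kinase Camk2a and the ornithine aminotransferase Oat, at 0.05 to 0.09.

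The 6 lists of fuel genes place the members among their pathways, with medians relative to the median listed gene. Of 23 genes put together for lipid droplets, triglyceride synthesis and lipolysis, 3 were listed, Lpin1, Plin4 and Acacb. All 3 were called higher in mRNA and in footprints. Acacb is the 1 gene that is not a member, and it makes malonyl-CoA, as described above. Acacb had 1891 reads in treated and 17 in untreated mRNA and 569 and 329 in treated and untreated footprints, with ratios of 5.16 (3.21 to 8.88) and 3.58 (3.12 to 4.11). Of 25 genes responsive to fasting, FoxO or PPAR and their regulators, 3 were listed, Pdk4, Lpin1 and Trim63, and all 3 were called higher in both, against 31.8% of listed genes in mRNA and 19.9% in footprints. Pdk4 and Lpin1 were chosen with these values known, which leaves Trim63 as the 1 other gene. Trim63 had 2695 reads in treated and 17 in untreated mRNA, a ratio of 7.35 (4.58 to 12.6), and 2201 and 444 in treated and untreated footprints. The other genes of these lists were not among the listed genes and were not analysed here, so neither list can be read as a whole.

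Of 17 beta-oxidation genes 13 were listed, and they lay mostly near or below the median gene in mRNA. None was called higher and 4 were called lower (median −0.43), against 24.8% of listed genes called lower. Under the constants of the authors 11 were called lower, where 543 of all listed genes were. The 4 were Etfb, the beta subunit of the electron carrier of this pathway, 2.04-fold lower (1.45 to 2.79), the thiolase Acaa2 2.27-fold lower (1.60 to 3.15), and, outside the naming rule, the dehydrogenases Hadh, 1.54-fold lower (1.03 to 2.22), and Acads, 2.61-fold lower (1.59 to 4.07). In footprints 1 gene, Hadhb, was called higher and 1 lower (median 0.20), against 19.9% and 26.2% of listed genes. The lower one was Etfa, the partner of Etfb, at 1.62-fold lower (1.40 to 1.88). In the footprint to mRNA ratio 7 of 13 were called higher and 1 lower, against 26.0% and 31.9% of 995 listed genes. Of the 7, 6 were other genes than Hadhb. This ratio depends on the scaling: the 259 listed genes called higher became 444 under the constants of the authors.

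Of 14 genes of fatty acid uptake and activation 6 were listed. In mRNA 2 were called higher and 3 lower (median −0.25), against 31.8% and 24.8% of listed genes. Under the constants of the authors 0 were called higher, where 110 of all listed genes were. The higher ones were Lpl, the lipase that frees fatty acids from lipoproteins, at 1.67 (1.05 to 2.84), and Acsl1, which activates fatty acids with coenzyme A, at 1.94 (1.32 to 2.95). The lower ones were Fabp3, Got2, the mitochondrial aspartate aminotransferase also described as a membrane fatty acid binding protein, 1.54-fold lower (1.23 to 1.92), and, outside the naming rule, Dbi, an acyl-CoA binding protein, 3.71-fold lower (2.54 to 5.28). In footprints 5 of the 6 were called higher and 0 lower (median 0.71), against 19.9% and 26.2% of listed genes, and without Fabp3 and Fabp4 the higher count was 3 of 4. Among them were Lpl at 1.66 (1.51 to 1.82) and Acsl1 at 1.54 (1.36 to 1.73), and Got2 had 0.898 (0.829 to 0.972). The count of 5 became 3 under upper-quartile scaling and 1 under the constants of the authors.

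Of 6 carnitine shuttle genes 3 were listed. Crat, the mitochondrial carnitine acetyltransferase, was called higher in mRNA at 5.72 (3.40 to 10.5), from 1725 treated and 14 untreated reads. Its footprint ratio was 1.10 (0.928 to 1.29). The 14 untreated mRNA reads of Crat are the lowest count in the list, and the intervals do not allow for that cut. None of the 3 was called in footprints, and 2 were called lower in mRNA under the constants of the authors, against 0 under TMM. Of 14 genes of pyruvate entry 7 were listed. In mRNA 2 were called higher, Pdk4 and Pdk2, with Pdk2 at 2.59 (1.81 to 3.82), and 1 lower, Dld, the shared dihydrolipoamide dehydrogenase, 1.55-fold lower (1.20 to 1.98). Under the constants of the authors 1 was called higher, Pdk4, and 5 lower, where 110 of all listed genes were called higher and 543 lower. In footprints Pdk4 was the 1 gene called higher, Pdk2 had 1.10 (0.991 to 1.22), and Dlat, the acetyltransferase core of the enzyme, was called 1.76-fold lower (1.57 to 1.97). Over all listed genes, under TMM, 31.8% were called higher and 24.8% lower in mRNA, and 19.9% and 26.2% in footprints. In the footprint to mRNA ratio, 3 of 6 uptake genes were called higher and 0 lower, and 2 of 3 carnitine shuttle genes higher and 1 lower. Of 7 pyruvate entry genes, 2 were called higher and 2 lower. By the same rule 26.0% of 995 listed genes were called higher in this ratio and 31.9% lower, shares that move with the scaling. Without Pdk4 the median of the pyruvate entry list was −0.14 in mRNA and −0.18 in footprints.

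**Figure D4:**
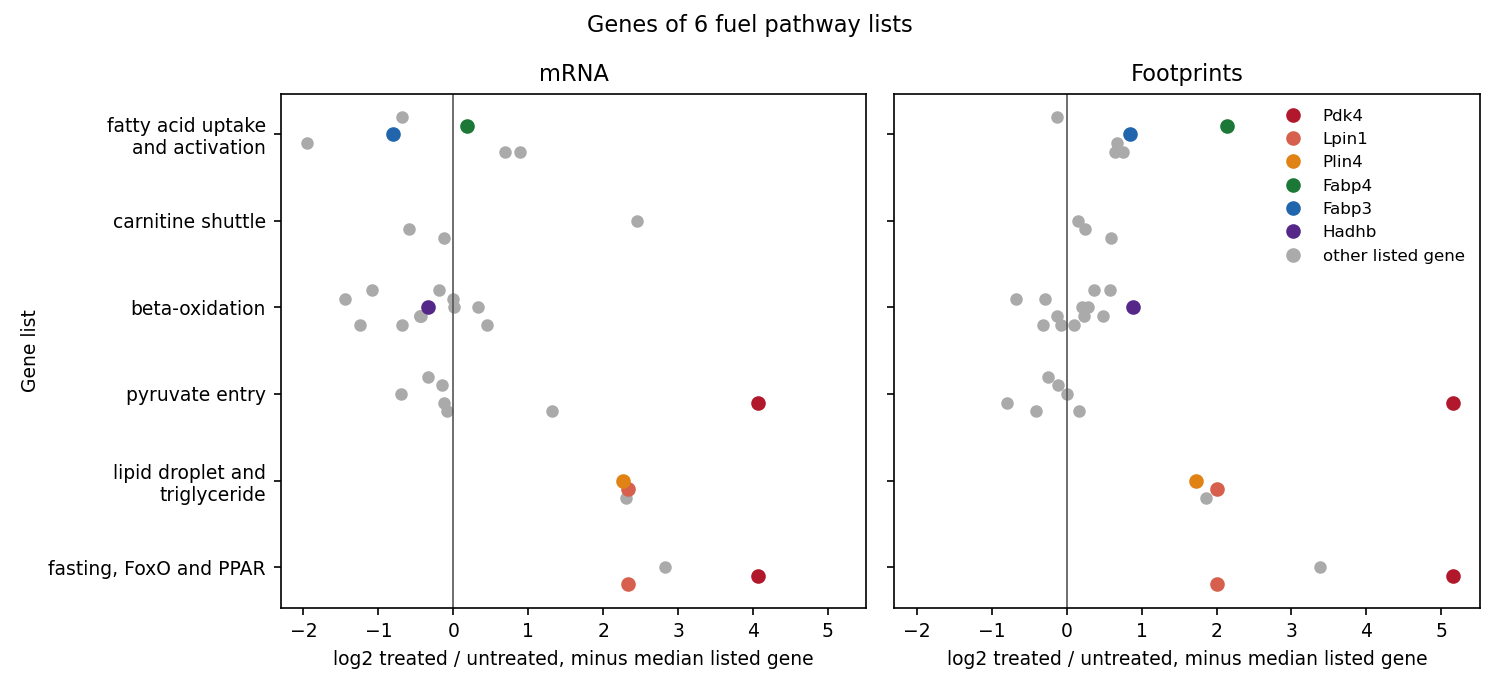
Log2 treated to untreated ratio minus that of the median listed gene (horizontal axis) for each listed gene of 6 fuel pathway lists (rows), in mRNA (left panel) and footprints (right panel); coloured points are the 6 genes, grey points the others. Pdk4 stands apart from the other pyruvate entry genes, at 4.07 in mRNA and 5.16 in footprints. In the droplet and triglyceride row the 3 points, Lpin1, Plin4 and Acacb, lie together.

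In a whole muscle, fewer cells of a type and less RNA per cell cannot be told apart, which bears most on Fabp4. Of 13 adipocyte markers 2 were listed, Fabp4 itself and Car3, a carbonic anhydrase that muscle fibres also make, with a summed level of 1303 and 1168 RPM in treated and untreated mRNA and 2634 and 1147 in treated and untreated footprints. Of 14 endothelial markers Fabp4 was the 1 listed. Of 15 macrophage markers 5 were listed, and their summed level was 529 and 1245 RPM in treated and untreated mRNA and 1189 and 2554 in treated and untreated footprints. None of the 5 was called higher, 4 were called lower in mRNA and 5 in footprints, against 24.8% and 26.2% of listed genes. The other adipocyte and endothelial markers, Adipoq, Plin1 and Pecam1 among them, were not analysed here, and the part of these cell types in the Fabp4 result was not tested.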

How the data were processed

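The deposited table lists 1000 genes by symbol and RefSeq identifier. Per the file headers it holds a read count for each of 4 libraries, and the deposited counts are whole numbers. Normalized read counts stand beside them, per the file headers. Each deposited normalized value was the count multiplied by a constant of its library, within 0.1, in 100% of genes, and these values were read as CPM, a scale inferred from the values. The submitters' processing notes list Trimmomatic, STAR and edgeR, with build mm9, but give no versions. How reads were counted, whether by strand, and what became of multiply mapped reads were not stated. Rows fall by untreated mRNA count to a lowest value of 14 reads, so a gene scarce in untreated muscle may be missing. Of the identifiers, 996 matched the RefSeq table of GRCm38.p6, used for names.

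Libraries were scaled with TMM (edgeR 4.0.16, R 4.3.3). Ratios carry exact conditional binomial 95% intervals. The footprint to mRNA ratio and the loading values had 0.5 added to each count and carry normal intervals on the log scale. Reads carry no molecular identifiers, so intervals cover counting error only, and no p-value was computed. The ratio and call steps were tested on simulated counts. The members, 6 pathway lists and 5 marker lists (adipocyte, endothelial, macrophage, fast fibre, slow fibre) were chosen with earlier results of these data known. Named were all members, the 2 genes next to Pdk4 in each ranking, the 3 nearest genes of each member (1 of them is not reported here), up to 4 called genes per pathway list with the most reads, and Hadha. Alternatives were scaling by DESeq2 1.42.0, by listed total, by upper quartile and by the total less the 20 most abundant genes, the authors' constants, no minimum or 200 reads, a 2-fold threshold, and 5 added to each count.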

Additional observations from a re-analysis of the deposited data

How the results depend on the processing

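All values in this part are counts of called genes unless said otherwise. The 3 members called higher in mRNA and the 4 called higher in the footprint to mRNA ratio kept those counts in each setting run for them. The 6 higher in footprints became 5 with the authors' constants and 4 at a 2-fold threshold. The 1 member called lower in mRNA became 2 (Fabp3 and Hadhb) with the total of listed reads, the upper quartile, the total without the 20 most abundant genes and the authors' constants, and 0 at a 2-fold threshold. The cause was not tested. Over all listed genes, the 317 higher in mRNA became 148 by listed total, 205 by upper quartile and 110 by the constants of the authors. The 247 lower became 464 with the listed total, 543 with the authors' constants and 160 at a minimum of 200 reads. The 199 higher in footprints became 114 with the authors' constants and 81 at 2-fold, and the 262 lower became 143 at 2-fold. In the footprint to mRNA ratio the 259 higher became 444 and 444, and the 317 lower 157 and 158, with the listed total and the authors' constants. Relative to the median gene, the members' log2 ratios do not depend on scaling, by construction. Depth limits the mRNA side: the half-width of the members' intervals was 0.35 to 0.81 log2 units in mRNA and 0.11 to 0.30 in footprints. No paired analysis was possible because each group has 1 library, and for the same reason none could be left out.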

Other observations

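Car3, a carbonic anhydrase listed with the adipocyte markers and also made by muscle fibres, is described here after its values were seen. It had 4020 reads in treated and 168 in untreated mRNA, and 4035 in treated and 3766 in untreated footprints. Its mRNA ratio was 1.11 (0.951 to 1.30) and its footprint ratio 2.22 (2.12 to 2.32), so that, as for Fabp4, footprints were called higher and mRNA neither way. The slow myosin gene Myh7 had a footprint ratio of 0.911 (0.891 to 0.931), beside its mRNA ratio of 4.07.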
